A study of Mus musculus with 9 samples.

Results

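*Srrm2* and 7 genes for other scaffold proteins of nuclear speckles or of the exon junction complex, *Srrm1*, *Son*, *Pnn*, *Acin1*, *Rnps1*, *Bclaf1* and *Thrap3*, were picked by name and found through their GENCODE M1 identifiers. All 8 are in both deposited tables, among 13643 genes that are in at least 1 of them. The cells were AML12, an immortalised mouse hepatocyte line, either labelled as control under the tag shRNA or infected with lentivirus for *Srrm2* shRNA 1 or *Srrm2* shRNA 2, with 3 libraries in each of the 3 groups. The labels date the knockdown groups to 5 days of infection and give neither a time nor a virus for the control, and nothing in them says that libraries came from separate cultures. Each deposited table belongs to 1 hairpin and gives for every gene 1 mean normalized count, taken by the authors over the control and that hairpin's libraries together. Control and knockdown are therefore mixed in every level below. The columns of the authors' own comparison were not used, so no depletion of *Srrm2*, no change against the control and no spread between replicates is given here, and no test between groups was run.

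Nuclear speckles are membrane-less bodies between chromatin domains that hold splicing factors and polyadenylated RNA. Srrm2 and Son are very large, largely disordered proteins that form the core of the speckle, and Srrm1 was first described as a splicing coactivator that works with Srrm2. Rnps1 binds spliced RNA next to the exon junction complex and joins Sap18 with either Acin1 or Pnn in complexes known as ASAP and PSAP. Bclaf1 and Thrap3 are related proteins of the speckle that take part in splicing and export of mRNA. Many of these proteins carry stretches in which serine and arginine alternate, called RS domains, which are phosphorylated by speckle kinases.

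The repeats can be read directly in the genes. For each gene, the 20 codons with the most serine-arginine or arginine-serine codon pairs in its longest coding sequence are shown 5′ to 3′, as read from the GENCODE M1 transcripts and checked against mm9. Capitals mark the codons that stand in such a pair.
Srrm2: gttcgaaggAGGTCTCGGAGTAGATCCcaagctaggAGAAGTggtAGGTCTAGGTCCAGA
Srrm1: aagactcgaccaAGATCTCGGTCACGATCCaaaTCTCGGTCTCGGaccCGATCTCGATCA
Son: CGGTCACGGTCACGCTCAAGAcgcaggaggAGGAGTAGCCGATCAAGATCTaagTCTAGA
Pnn: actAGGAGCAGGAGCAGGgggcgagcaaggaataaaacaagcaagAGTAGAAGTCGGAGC
Acin1: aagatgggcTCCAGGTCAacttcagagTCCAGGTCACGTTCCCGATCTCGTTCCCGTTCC
Rnps1: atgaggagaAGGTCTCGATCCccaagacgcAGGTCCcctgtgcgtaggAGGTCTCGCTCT
Bclaf1: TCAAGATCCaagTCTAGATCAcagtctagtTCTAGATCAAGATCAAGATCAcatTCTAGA
Thrap3: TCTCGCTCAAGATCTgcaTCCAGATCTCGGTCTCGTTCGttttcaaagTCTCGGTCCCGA
The windows hold between 7 pairs (*Rnps1*) and 13 pairs (*Thrap3*), with 10 in *Srrm2* and 12 in *Son* and *Acin1*. The longest coding sequence of *Rnps1* has the fewest pairs per 100 codons of its 4 coding transcripts, and windows in the others were not read. In mm9 the *Srrm2* window lies on the + strand at chr17:23952944-23953003 and the *Son* window on the + strand at chr16:91660270-91660329. That of *Srrm1* is on the - strand at chr4:134896806-134896865 and that of *Thrap3* on the - strand at chr4:125863717-125863776. The *Pnn* window is at chr12:60173318-60173377 (+), the *Acin1* window at chr14:55283230-55283289 (-) and the *Bclaf1* window at chr10:20041849-20041908 (+). The *Rnps1* window crosses an intron and occupies chr17:24561478-24561488 and chr17:24562031-24562079 on the + strand. *Bclaf1* and *Thrap3* have theirs close to the start of the protein, at codons 11 to 30 and 14 to 33, whereas that of *Son* starts at codon 1887 of 2478.

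Both hairpins were designed against *Srrm2*, and both target sites are in its coding sequence. They are shown because *Srrm2* is the gene that was depleted, and the capitals in the first mark the bases that come from the next exon.
shRNA 1 site: cccaaaccatacagCCTTGTT
shRNA 2 site: ccagtttatctccagaacata
The first site has 14 bases at the end of exon 3, at chr17:23945472-23945485 of mm9, and 7 at the start of exon 4, at chr17:23946936-23946942. The second lies in exon 10 at chr17:23954700-23954720. In the coding transcripts of the other 7 genes, the closest match to either site has 5 mismatches in 21 bases, in *Rnps1* for the first and in *Srrm1* for the second.

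*Srrm2* RNA was the most abundant of the set, although the libraries with depleted cells are part of its mean. Its mean normalized count was 3428 in the table of shRNA 1 and 3759 in that of shRNA 2. Next by count came *Son*, with 3288 and 3285. *Pnn*, which encodes pinin, was lowest with 198 and 210.1 normalized counts. These counts grow with transcript length, and genes are compared below only per kilobase of exon, with the exons of all annotated transcripts of a gene merged.

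Per kilobase, *Srrm2* had 387 normalized counts in the table of shRNA 1 and 424 in that of shRNA 2. This was above 94.7% and 95.1% of the protein-coding genes in the same tables, whose medians were 47.6 and 49.5 normalized counts per kilobase. *Srrm2* spans 23940154 to 23961706 of chromosome 17 on the + strand, has 8867 bases of exon, and 1 exon of 6569 bases makes up 76.4% of its longest coding transcript.

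Its relative *Srrm1* lay below it. It had 112 and 107 normalized counts per kilobase in the tables of shRNA 1 and shRNA 2, at percentiles 74.9 and 72.7, against an upper quartile of 113 and 117 per kilobase over coding genes. The length of its longest coding transcript (3801 in place of 7368 bases) gave 218 and 208, at percentiles 85.0 and 83.2, still below *Srrm2* with 399 and 437. *Srrm1* is on the - strand of chromosome 4, from 134876399 to 134909236, and 6 of its 16 annotated transcripts are retained-intron forms and 2 are targets of nonsense-mediated decay by their annotation. None of these forms is annotated for *Srrm2*, which has 3 transcripts, all coding. Of the other relatives, *Srrm4* had 12.6 normalized counts per kilobase in the table of shRNA 1, at percentile 22.8, and *Srrm3* is in neither table.

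*Son*, the other core scaffold, had nearly the same level per kilobase in both tables, 221 with shRNA 1 and 220.4 with shRNA 2. This was above 88.5% and 88.0% of coding genes. These levels are not adjusted for the scale between the tables, whose medians over coding genes were 47.6 and 49.5. *Son* lies on the + strand of chromosome 16, from 91647751 to 91679466. It has the longest merged exons of the set, 14907 bases, and 103 of them overlap exons of *Donson* on the opposite strand.

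The proteins of the ASAP and PSAP complexes differed in RNA level. *Rnps1*, their shared subunit, had 260.5 normalized counts per kilobase in the table of shRNA 1 and 292 in that of shRNA 2 (percentiles 90.7 and 91.6). *Acin1*, which joins it in ASAP, had 114 and 131 per kilobase (percentiles 75.3 and 77.9). *Pnn*, which takes the same place in PSAP, had 57.1 and 60.6, at percentiles 55.3 and 55.7. *Sap18*, which is common to both complexes, had 111 and 123 per kilobase. By merged exons, *Rnps1* thus had the highest and *Pnn* the lowest level of the 4, in both tables. By the longest coding transcript, *Acin1* had 209 and 240.0 per kilobase, and *Rnps1* and *Pnn* kept their values. *Sap18* was not read by that length. *Rnps1* lies on chromosome 17 from 24551620 to 24562840 (+), *Acin1* on chromosome 14 from 55260998 to 55305768 (-) and *Pnn* on chromosome 12 from 60167906 to 60175004 (+). Of the merged exons of *Acin1*, 5.36% overlap those of 1700123O20Rik on the opposite strand. The sources used here do not say how reads in such overlaps were counted.

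Which of *Bclaf1* and *Thrap3* was higher depended on the length used. *Bclaf1* (chromosome 10, 20032275 to 20062307, +) had 199 and 195 normalized counts per kilobase in the tables of shRNA 1 and shRNA 2, and *Thrap3* (chromosome 4, 125841326 to 125880004, -) had 150.4 and 169. Their percentiles among coding genes were 87.0 and 85.8 for *Bclaf1* and 81.7 and 83.3 for *Thrap3*. With the longest coding transcript, which has 4378 of the 9234 exon bases of *Thrap3*, the order turned, with 317 and 357 for *Thrap3* and 206 and 201 for *Bclaf1*.

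From highest to lowest, the order per kilobase of merged exon was *Srrm2*, *Rnps1*, *Son*, *Bclaf1*, *Thrap3*, *Acin1*, *Srrm1* and *Pnn*, and it was the same in both tables. It depends on the length. With the longest coding transcript the levels of *Son*, *Acin1*, *Srrm1* and *Thrap3* were 1.71 to 2.11 times as high, and the order in the table of shRNA 1 became *Srrm2* (399), *Son* (377), *Thrap3* (317), *Rnps1* (260.5), *Srrm1* (218), *Acin1* (209), *Bclaf1* (206) and *Pnn* (57.1). In the table of shRNA 2, *Acin1* (240.0) came before *Srrm1* (208). *Srrm2* was the highest and *Pnn* the lowest by both lengths. By merged exons the highest was 6.77 times the lowest in the table of shRNA 1. The tables are taken to share the control libraries, so the second order is not read as an independent repeat of the first. Without a spread between libraries it cannot be said which neighbours differ. *Acin1* and *Srrm1* were the closest pair by merged exons in the table of shRNA 1, with 114 and 112. Together the 8 genes made up 0.191% of all mean normalized counts in the table of shRNA 1 and 0.194% in that of shRNA 2.

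**Figure D1:**
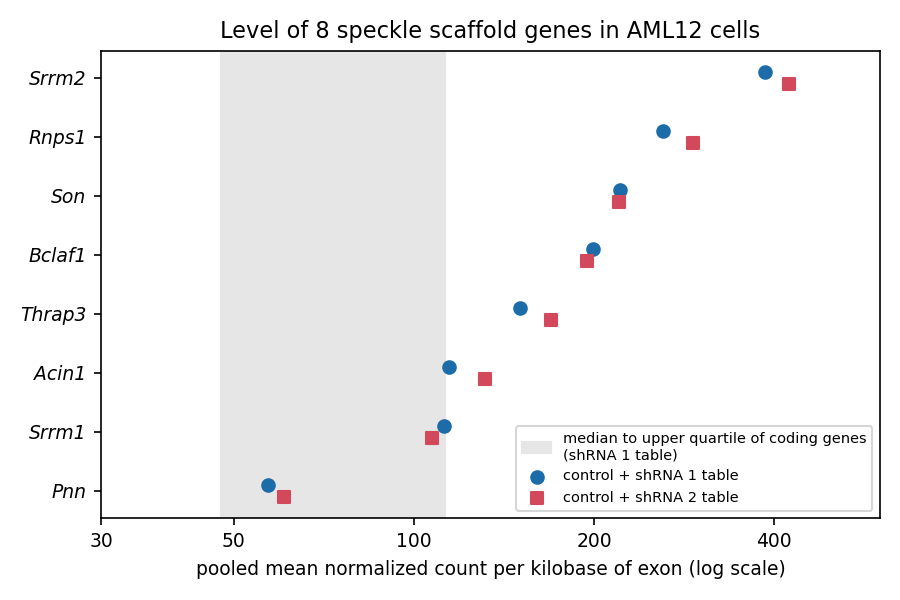
Mean normalized count per kilobase of merged exon on a log axis, as pooled by the authors over control and shRNA 1 libraries (circles) or control and shRNA 2 libraries (squares). The grey band runs from the median to the upper quartile of protein-coding genes in the table of shRNA 1 (47.6 to 113). Of the 8 circles, 6 lie above the upper quartile, and *Srrm2* is the highest at 387.

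Some levels depend on which reads could be placed. The authors kept only reads that mapped uniquely, and some of these genes have close copies elsewhere in mm9. Copies were counted from 95% identity over 100 bases upwards. In *Rnps1*, 81.1% of its longest coding transcript has such a copy. The longest of its 3 copies has 99.5% identity over 1557 bases on chromosome 6 and is the annotated pseudogene *Gm9825*. *Thrap3* has a copy for 95.9% of its transcript, with 98.6% identity over 3352 bases at the pseudogene *Gm5898* on chromosome 7 and 95.6% over 2319 bases at *Gm15204* on chromosome X. Of all stretches of 100 bases in these transcripts, 51.3% in *Rnps1* and 32.5% in *Thrap3* occur elsewhere without a mismatch. The corresponding share was 0.859% in *Srrm2*, through the pseudogene *Gm16581*, and 0% in *Srrm1*, *Son*, *Pnn*, *Acin1* and *Bclaf1*. None of these 4 pseudogenes is in either table. How many reads of *Rnps1* and *Thrap3* were lost was not tested, and their levels are uncertain for this reason.

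Other genes of the speckle and the exon junction were read per kilobase of merged exon too. Of 13 SR proteins, the family of splicing factors with RS domains, 12 are in both tables, with a median of 162 normalized counts per kilobase with shRNA 1, between *Srsf4* at 61.7 and *Srsf2* at 320.1. The 8 scaffold genes had a median of 175. Of 15 further speckle proteins listed as having RS domains, 14 are in both tables. Their median was 113, with a range from *Rsrc1* at 14.9 to *Rbm39* at 238. Of 10 partners in the exon junction core, ASAP and mRNA decay, 8 are in both tables and 2 symbols are not in the annotation. Their median was 98.7 normalized counts per kilobase, from *Magohb* at 26.4 to *Eif4a3*, the RNA helicase of the core, at 189. Of 7 partners of *Bclaf1* and *Thrap3*, 6 are in both tables, with a median of 177, and the RNA helicase *Ddx17* was the highest at 697. These levels were not compared by a test.

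Both tables were taken to use the same control libraries, which the sample titles do not say. If they do, the ratio of a gene's 2 means bears on whether the knockdown groups had different levels. The log2 ratio of the mean in the table of shRNA 2 over that of shRNA 1 was centred on its median over the 7757 genes whose mean reached 100 in each of them, which was 0.07. A centred value past 0.1 in either direction was counted, which for *Thrap3*, just past it, corresponds to a difference between the knockdown groups of 13.9% of the pooled mean. It was passed by 43.7% of these genes, and 4 of the 8 scaffold genes passed it. *Acin1* and *Thrap3* were above 0.1, as were 21.3% of all genes, and *Srrm1* and *Bclaf1* below -0.1, as were 22.4%. At 0.05 there were 7 of 8, against 69.3% of all genes, and at 0.2 there were 0 of 8, against 14.4%. Shares of 8 genes this close to those of all genes are no result about the set.

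By gene, *Srrm2* had a centred log2 ratio of 0.07. If the controls are shared, this places the mean of the shRNA 2 group above that of the shRNA 1 group by 9.02% of its pooled mean. Of all genes, 70.0% had a lower or equal ratio. *Srrm1* had -0.14, so on the same assumption the shRNA 2 group was lower by 18.9% of the pooled mean, at percentile 14.9. *Son* had -0.07 and lay at percentile 29.9. *Srrm1* and *Son* were thus on the other side of the median gene from *Srrm2*. In the ASAP and PSAP group, *Acin1* had 0.13 (percentile 85.2), *Rnps1* 0.10 (percentile 78.4) and *Pnn* 0.02 (percentile 55.7). The related *Bclaf1* and *Thrap3* had opposite signs, with -0.10 and 0.10, at percentiles 21.6 and 78.8. All 8 values lie between the 5th and 95th percentiles of all genes, which are -0.25 and 0.22. None of these differences has an error, so none can be told from the spread between libraries.

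**Figure D2:**
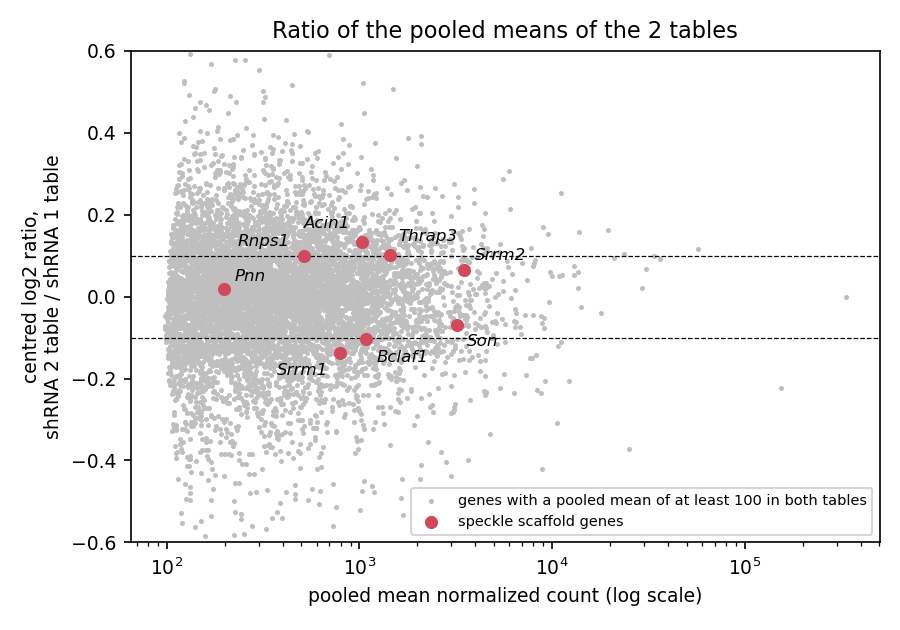
Centred log2 ratio of the pooled means of the 2 tables against the pooled mean (log axis). Grey points are the 7757 genes whose mean reached 100 in each table, 33 of which lie outside the vertical axis, red points are the 8 scaffold genes and dashed lines mark 0.1 and -0.1. The red points run from -0.14 (*Srrm1*) to 0.13 (*Acin1*) and stay within the cloud of all genes.

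In the 4 other lists of speckle and exon junction genes, those whose mean reached 100 were read in the same way. Of 12 SR proteins, *Srsf3* was above 0.1 with 0.13 and *Tra2a* just below -0.1 with -0.10. Of 5 exon junction and decay partners, *Upf3b*, a factor of nonsense-mediated decay, was below with -0.15. Of 5 partners of *Bclaf1* and *Thrap3*, *Erh* was above with 0.14, and of 14 further RS domain proteins *Scaf4* was above with 0.16. These are 2 of 12, 1 of 5, 1 of 5 and 1 of 14 genes, against 43.7% of all genes past 0.1 in either direction. Of cell type markers whose mean reached 100, 6 of 9 hepatocyte and 2 of 3 biliary genes lay past 0.1. Whether any list differs from all genes was not tested. The medians of the 4 lists were -0.03, 0.08, 0.03 and 0.01, and that of the scaffold genes was 0.04.

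The scaffold genes also have coding sequences rich in serine-arginine pairs, a measure taken from the reference and not from the libraries. In the 21430 coding genes of GENCODE M1 with at least 100 codons, the median was 0.738 such pairs per 100 codons. *Srrm2* had 11.8 per 100, or 318 pairs in 2704 codons, above 99.9% of genes. *Bclaf1* and *Thrap3* had nearly the same density, 6.74 and 6.72 per 100 codons. *Srrm1* had 5.70, *Rnps1* 4.42, *Pnn* 3.85, *Son* 3.75 and *Acin1* 3.29. All 8 were above the 95th percentile of coding genes, 2.09, and 7 of 8 above the 99th, 3.55, with *Acin1* just below it at percentile 98.8. *Srrm1* and *Srrm2* were named for this property, so the density is not independent of how the set was put together. The densities follow the transcript with the longest coding sequence. They vary among transcripts of a gene, most of all in *Thrap3*, from 0 to 35.0 per 100 codons. The minimum of 100 codons was not applied to single transcripts, and the lengths behind these extremes are not given. In *Rnps1* the value of 4.42 is the lowest of its 4 coding transcripts, whose median is 8.82.

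Serine and arginine codons contributed unequally. In *Srrm2*, 23.2% of codons encode serine and 16.5% arginine, against medians of 7.90% and 5.40% over all coding genes. *Son* was rich in serine alone, with 14.1% serine codons (percentile 97.7) and 6.38% arginine codons (percentile 68.4). *Rnps1* was the reverse in its longest coding sequence, with 8.29% serine codons (percentile 57.0) and 12.4% arginine codons (percentile 98.4). That sequence has the lowest pair density of its 4 coding transcripts. The serine and arginine shares of the others were not read, so the reverse is not shown for the gene as a whole. SR proteins had a higher median density of pairs than the scaffold genes, 15.2 against 5.06 per 100 codons, the other RS domain proteins 5.61, and the exon junction and decay partners 1.11. The partners of *Bclaf1* and *Thrap3* had 1.42. The lowest single values were 1.45 in the SR proteins and 0.834 in the other RS domain proteins. The latter is near the median of 0.738 over all coding genes.

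**Figure D3:**
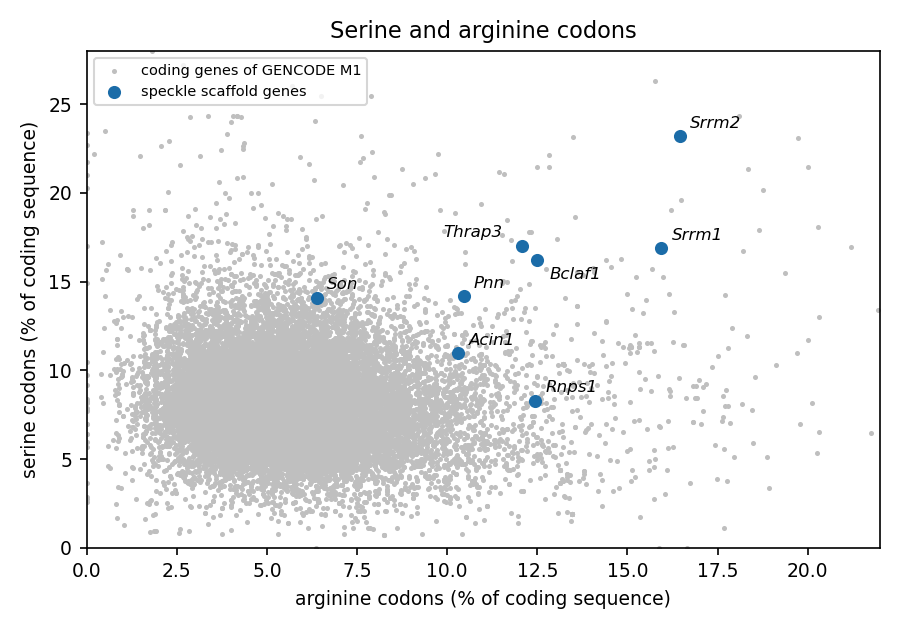
Share of serine codons against share of arginine codons in the longest coding sequence of each gene, for all coding genes with at least 100 codons (grey, 15 of them outside the axes) and the 8 scaffold genes (blue). *Srrm2* is at 16.5% arginine and 23.2% serine. *Son* lies among most genes on the arginine axis, at 6.38%, and *Rnps1* on the serine axis, at 8.29%. The *Rnps1* point is from its coding transcript with the lowest density of serine-arginine pairs.

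Where the pairs sit in the coding sequence differed between the genes. In *Bclaf1* and *Thrap3*, 75.8% and 71.9% of the pairs are in the first 25% of the coding sequence. In *Pnn* 92.9% and in *Son* 71.0% are in the last 25%, as are 56.2% in *Rnps1* and 31.8% in *Acin1*. For *Rnps1* this rests on 16 pairs in its coding transcript with the lowest pair density, and the positions in its other transcripts were not read. *Srrm2* had 28.6% of its pairs in the first 25% and 10.7% in the last, with most between them, and *Srrm1* had 22.2% and 9.26%.

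**Figure D4:**
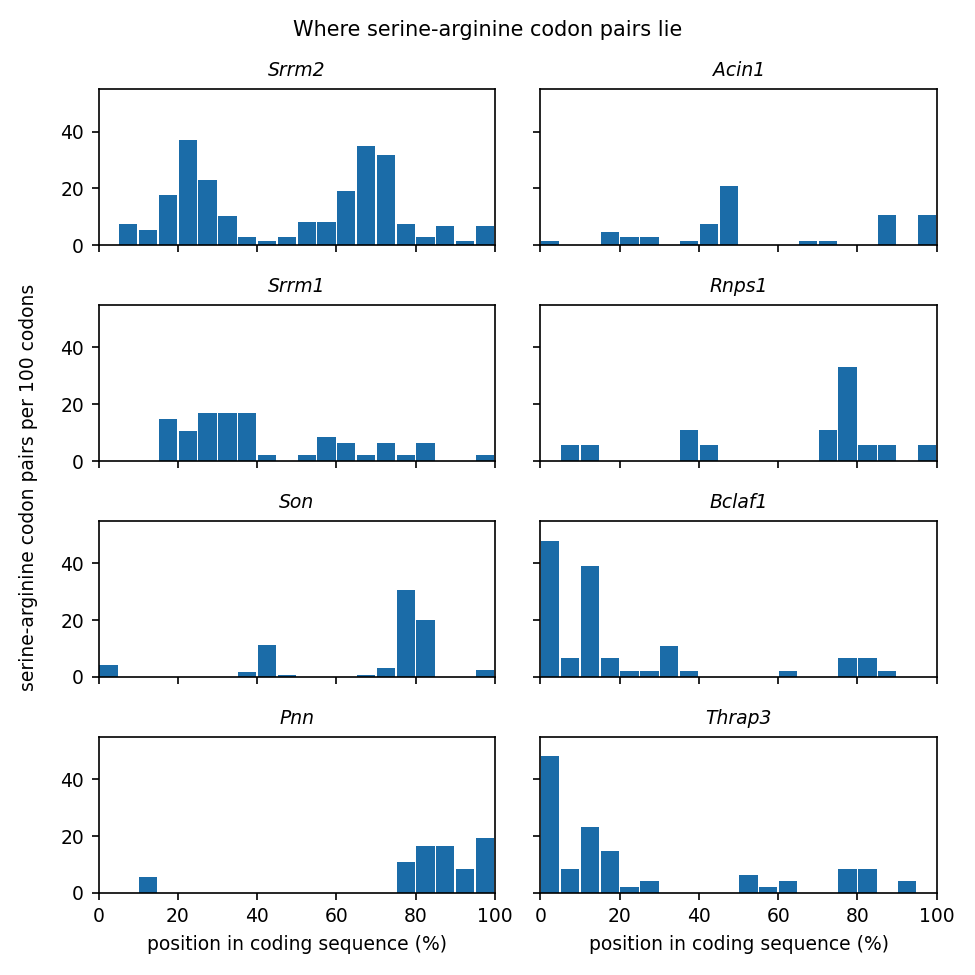
Serine-arginine codon pairs per 100 codons in 20 equal bins along the longest coding sequence of each gene, from the start (0%) to the stop (100%). *Bclaf1* and *Thrap3* have their highest bins at the start, with 47.8 and 48.3 pairs per 100 codons, *Pnn* and *Son* towards the end, and *Srrm2* has 2 peaks away from both ends.

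The identity of the cells bears on all of these levels. All 11 hepatocyte markers are in both tables, among them *Apob* with 1449 normalized counts per kilobase, *Alb* with 1053 and *Hnf4a* with 298 in the table of shRNA 1, while *Ahsg* was low with 5.38. Biliary markers were also present, with *Krt19* at 1537, *Krt7* at 192 and *Sox9* at 162, though *Epcam* is in neither table. The 3 endothelial markers are in neither table, 2 of 3 leukocyte and 2 of 4 stellate or fibroblast markers are in both, and *Adgre1*, the third leukocyte marker, is not in the annotation under that symbol. Of the leukocyte genes, *Ptprc* had 0.911 and *Cd68* 19.95 normalized counts per kilobase in the table of shRNA 1, and of the fibroblast genes *Col1a1* had 0.587 and *Des* 2.14. In RNA from whole cultures, fewer cells with a transcript and less of it per cell cannot be told apart.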

How the data were processed

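RNA-seq reads of 9 AML12 libraries were trimmed and mapped to mm9 with TopHat2 by the authors, uniquely mapped concordant pairs were kept and counted on GENCODE M1 genes with HTSeq, and DESeq2 version 1.8.2 was run with default parameters. The methods describe strand-specific polyA libraries made with a total RNA kit, and the labels give total RNA. The signal used here is the authors' deposited mean normalized count. It is made of counts divided by size factors and averaged by the authors over the libraries of a comparison, taken to be 6. It has no replicate error, and its sums were 6144610 for shRNA 1 (13424 genes) and 6393460 for shRNA 2 (13478 genes). The depth of single libraries is unknown. The deposited tables also give a fold change, its standard error, a test statistic, a p-value and an adjusted p-value of the authors' own comparison. These 5 columns were not used, so the groups were not compared by a test.

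Samples were grouped by title, because the descriptions of 2 control libraries name tables of further hairpins. That all control libraries entered both tables was assumed and could not be checked. All gene identifiers matched GENCODE M1 on NCBIM37, the assembly of mm9. Means were divided by merged exon length, ratios between tables were centred on the median, and the centring was tested on simulated data where a known scale had been put in. Codons were read from the coding transcripts. The hairpin sites were placed by matching the targets in the paper's methods to the longest coding *Srrm2* transcript, and matched to the samples by number. Copies were searched with blastn 2.17.0 (at least 95% identity over 100 bases). Alternatives were other scalings, minimum means, lengths and thresholds. The members and lists were chosen with earlier results of these data known. Besides markers, named genes are the 8 members and, of each further speckle or exon junction list, the highest and lowest per kilobase. Those past 0.1 at a mean of at least 100 are named too. Of the genes this rule picks, 1 is not reported here. Python 3.11.15, numpy 2.4.6, pandas 2.3.3 and matplotlib 3.10.9 were used.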

Additional observations from a re-analysis of the deposited data

How the results depend on the processing

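Of 40 centred ratios of the 8 genes under 5 other scalings, 30 kept their sign and their side of 0.1, 10 crossed 0.1 and 0 passed it with the opposite sign. Without centring, the median ratio of the set was 0.11, and that of the genes used for centring was itself 0.07. The 4 genes past 0.1 were then *Acin1*, *Rnps1*, *Thrap3* and *Srrm2* (0.13), all higher with shRNA 2. *Srrm1* had -0.07 and *Bclaf1* -0.04. The share of all genes past 0.1 was not read without centring, so this count is no result about the set. With a threshold of 0.05 in place of 0.1 on the centred ratio, 7 genes passed, against 69.3% of all genes. With 0.2, 0 did, against 14.4%. Under the other scalings 3 or 4 passed 0.1, and the share of all genes was not read there. *Rnps1*, *Bclaf1* and *Thrap3* lie so close to 0.1 that a shift of 0.01 moves them across it. The median percentile of the level per kilobase, 84.3, was 86.5 with the length of the longest coding transcript, which changed the order of the genes, and 85.2 among all genes. The median density of serine-arginine pairs, 5.06, was 6.21 over all coding transcripts, an alternative chosen after seeing the data. No paired analysis was possible because only means over control and knockdown libraries were used, and for the same reason no replicate was left out.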
